A study of Mus musculus with 8 samples.

Results

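The pre-TCR and Notch genes described here are Ptcra, Dtx1, Notch1, Notch3, Hes1, Nrarp, Rbpj and Il2ra, 8 of the 55359 genes in the tables, taken by gene symbol. Their expression was measured by RNA sequencing in double positive (DP) thymocytes, which carry CD4 and CD8 together, sorted from mouse thymus by a surface TCR beta that was negative or low to intermediate. All 8 samples came from 5-week-old mice with the LSL-Sting1-N153S allele, in which a loxP-flanked stop cassette holds back a STING coding sequence with the N153S substitution, known to make STING overactive. The 4 control samples (genotype LSL-Sting1-N153S/+, replicates 1 to 4) had no Cre in their labels. In the 4 Lck-cre samples (genotype LSL-Sting1-N153S;Lck-cre, replicates 5 to 8) Cre recombinase was driven by the promoter of Lck, a kinase gene that is switched on in T cell progenitors, so the allele can have been opened before the DP stage. Replicates 1 and 5 were female and the other 6 male.

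The pre-TCR is a surface receptor of immature thymocytes in which an invariant alpha chain, the product of Ptcra, pairs with a newly rearranged TCR beta chain. It signals through CD3 and drives cells from the double negative (DN) stage, which has neither CD4 nor CD8, through a burst of division to the DP stage. Notch receptors act on the same cells: a ligand on thymic epithelium triggers cleavage of the receptor, and its intracellular part enters the nucleus and joins the DNA-binding protein RBPJ and a Mastermind coactivator to switch on genes such as Hes1, Dtx1, Nrarp and Ptcra. Both activities are high at the late DN stage and are known to fall as cells become DP.

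Levels are given in FPKM, mapped fragments scaled for gene length and library size, so levels can be compared between genes. Sting1, which checks the labels, lay at 11.6 to 15.3 FPKM in the controls and at 221, 85.4, 130 and 232 FPKM in Lck-cre replicates 5 to 8. Cd4, Cd8a and Rag1, which mark DP cells, were at 422 FPKM or more in every sample. The tables list no read counts, so the total depth is unknown. Among genes above 1 FPKM, the most common ratio of deposited coverage to FPKM was 7.53 to 7.89 across samples. By this proxy libraries differed little in depth. The ratio differed between genes, and Rbpj had a coverage of 10.3 reads per base at 14.1 FPKM in control replicate 1. The labels do not say that each sample is a separate animal, and p-values measure the spread between these samples, which may be technical.

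Ptcra and Dtx1 rose in Lck-cre DP thymocytes, by 1.42 and 1.73 times in mean FPKM, and no member fell. Of the 8 members, 7 reached 1 FPKM in 4 or more samples and were tested. With limma on log2(FPKM + 0.5), 2 of these 7 (28.6%) passed an adjusted p of 0.05, against 25.8% of the 12337 genes tested, so the share of called members was near the background. For higher levels in Lck-cre alone the background was 15.4%, from 1901 genes called higher and 1279 lower (1300 and 2067 with TPM, a scale on which each sample has the same sum). Before adjustment, 6 of the 7 were higher at p under 0.05 and 0 lower, against a background of 41.4% in either direction and 23.4% higher. The median log2 change was 0.42 over the tested members and 0.012 over all tested genes. Without Lck-cre replicate 5, 0 members passed by limma (3 of the 7 had an unadjusted p under 0.05), and without control replicate 1 only Dtx1 passed. Both omissions make the same comparison of 3 males with 3, since the female left is fitted exactly. The adjusted p of Dtx1 by limma was 0.0501 and 0.0486 in these fits. Without Lck-cre replicate 6, 4 passed, and without control replicate 4, 3 passed. Calls over all 12337 genes moved as well, from 3180 with all samples to 647 without Lck-cre replicate 5 and 653 without control replicate 1. They numbered 3889 without Lck-cre replicate 6 and 2111 without control replicate 4.

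**Figure D1:**
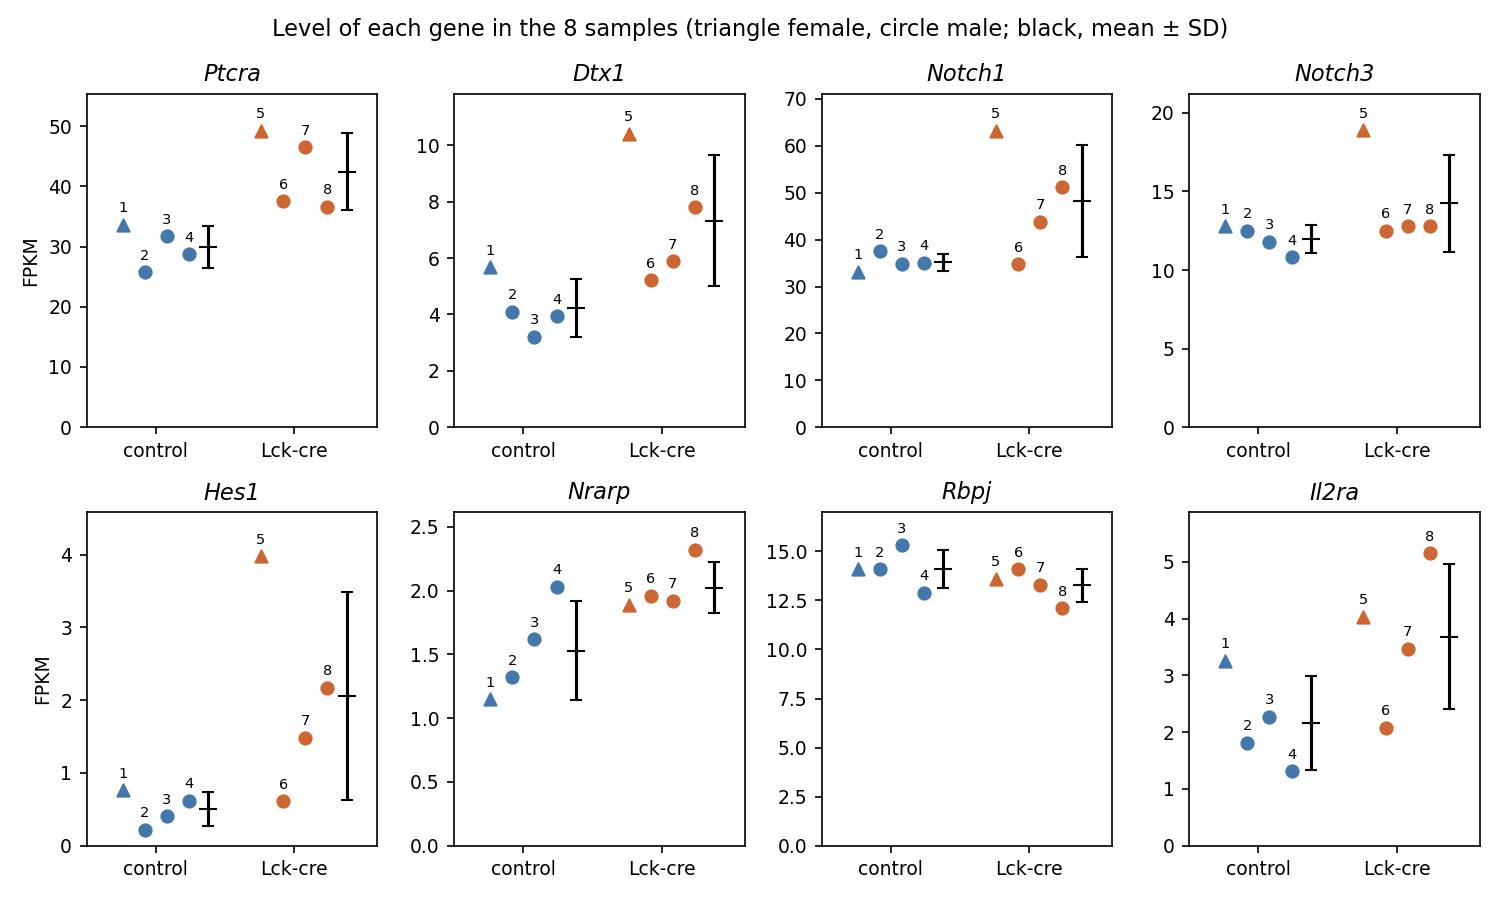
FPKM of the 8 genes in each sample, with replicate numbers beside the points, triangles for the 2 females and circles for the 6 males, and the mean ± SD of 4 samples in black. The groups are apart for Ptcra alone, and Lck-cre replicate 6 lies within the control range for the other 7.

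Ptcra was the member whose groups did not overlap. The files list it as ENSMUSG00000036858.9, chromosome 17, 47066589 to 47074638, minus strand. The files name no genome build for their coordinates. Ptcra lay at 33.6, 25.7, 31.7 and 28.7 FPKM in control replicates 1 to 4 and at 49.2, 37.5, 46.5 and 36.6 FPKM in Lck-cre replicates 5 to 8. Every Lck-cre sample was above every control, with replicates 5 and 7 highest. The means were 29.9 ± 3.49 and 42.4 ± 6.34 FPKM (SD, n = 4 each), a log2 change of 0.49 (SE 0.09, 95% interval 0.28 to 0.71, adjusted p = 0.0107 by limma). Permuting the samples exactly gave a two-sided p of 0.0286, the smallest that 4 against 4 samples allow. Of all tested genes, 29.4% had groups that did not overlap. Without control replicate 1 or Lck-cre replicate 5 the log2 change of Ptcra was 0.48 in each case and the call ended (adjusted p of 0.0512 and 0.0517 by limma).

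Dtx1 encodes Deltex 1, a ubiquitin ligase that binds Notch and is itself switched on by Notch. The files list it as ENSMUSG00000029603.16, chromosome 5, 120818267 to 120849992, minus strand. Its level was 5.68, 4.09, 3.21 and 3.94 FPKM in control replicates 1 to 4, and 10.4, 5.22, 5.88 and 7.81 FPKM in Lck-cre replicates 5 to 8. The groups overlapped at 1 point, since Lck-cre replicate 6 was below control replicate 1, and in both groups the female sample was highest. The means were 4.23 ± 1.04 and 7.33 ± 2.32 FPKM (SD, n = 4 each), a log2 change of 0.71 (SE 0.13, 95% interval 0.42 to 1.0, adjusted p = 0.00985 by limma with a term for sex). Exact permutation of the samples, which has no such term, gave a two-sided p of 0.0571. Without Lck-cre replicate 5 the log2 change was 0.67 and the adjusted p by limma was 0.0501. Without control replicate 1 they were 0.67 and 0.0486.

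The promoters of Ptcra and Dtx1, the members that rose, and of Rbpj are shown for their matches to TGGGAA, the core that RBPJ is known to bind, which were found in Ptcra and Rbpj and not in Dtx1. The sequences are the 250 bases before the gene start from RefSeq on GRCm38.p6, 5′ to 3′ on the gene's strand, with matches on either strand in capitals. These coordinates belong to that build and are not those of the files. A promoter was found for 7 of the 8 members, and Hes1 was not matched.
Ptcra, chr17:46763713-46763962, minus strand: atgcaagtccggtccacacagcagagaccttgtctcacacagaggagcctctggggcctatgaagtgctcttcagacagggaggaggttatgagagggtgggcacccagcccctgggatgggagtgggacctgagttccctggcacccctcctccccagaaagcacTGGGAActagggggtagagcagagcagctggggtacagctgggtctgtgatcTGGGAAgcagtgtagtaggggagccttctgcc
Dtx1, chr5:120711670-120711919, minus strand: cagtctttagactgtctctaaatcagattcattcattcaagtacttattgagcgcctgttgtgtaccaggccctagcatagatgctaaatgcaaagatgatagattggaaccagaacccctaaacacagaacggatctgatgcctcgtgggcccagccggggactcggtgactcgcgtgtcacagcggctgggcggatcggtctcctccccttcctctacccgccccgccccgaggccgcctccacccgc
Rbpj, chr5:53590096-53590345, plus strand: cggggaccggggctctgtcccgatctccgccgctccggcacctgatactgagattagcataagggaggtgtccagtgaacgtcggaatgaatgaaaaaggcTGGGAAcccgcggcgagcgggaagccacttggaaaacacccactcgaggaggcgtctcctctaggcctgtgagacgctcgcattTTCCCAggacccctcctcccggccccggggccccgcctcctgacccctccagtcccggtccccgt

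The Ptcra window held 2 matches, starting 84 and 32 bases before the gene start, and the Rbpj window shown held 2, at 149 and 65 bases. A second listed start of Rbpj has an overlapping window with 1 match, at 205 bases. The Dtx1 window and those of Notch1, Notch3, Nrarp and Il2ra held 0. Among 32851 RefSeq windows of the same length, 21.6% held at least 1 match and 2.77% at least 2. The Ptcra window also held 2 matches to CANNTG, the E box that E proteins such as the products of Tcf3 and Tcf12 are known to bind, at 60 and 49 bases before the start, neither overlapping a TGGGAA match. Of all windows 66.2% held this motif and 31.8% held 2 or more. A match of letters is a description and not a bound site, and a window without one says only that the letters are not there.

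Among the receptors, Notch1 had the highest level, followed by Notch3. Notch1 is the receptor that T cell commitment depends on (ENSMUSG00000026923.16, chromosome 2, 26347915 to 26406675, minus strand). It lay at 33.2, 37.5, 34.9 and 35.1 FPKM in the controls, a narrow range, and at 63.2, 34.8, 43.8 and 51.2 FPKM in Lck-cre replicates 5 to 8. Of the Lck-cre samples 3 were above the highest control, while replicate 6 lay among the controls. The means were 35.2 ± 1.74 and 48.2 ± 12 FPKM (SD, n = 4 each), and the coefficient of variation was 4.96% in the controls and 25.0% in Lck-cre. The log2 change was 0.42 (SE 0.14, 95% interval 0.10 to 0.74), with adjusted p = 0.0574 by limma and an exact two-sided permutation p of 0.114, so Notch1 did not pass. Without Lck-cre replicate 6 it passed, with a log2 change of 0.55 and adjusted p = 0.0081 by limma. Without Lck-cre replicate 5 or control replicate 1 the log2 change was 0.25 (adjusted p of 0.217 and 0.216 by limma).

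Notch3, a receptor that is itself induced by Notch and the pre-TCR, was set apart by 1 sample (ENSMUSG00000038146.9, chromosome 17, 32339794 to 32385826, minus strand). It lay at 12.8, 12.5, 11.8 and 10.8 FPKM in the controls, and at 18.9, 12.5, 12.8 and 12.8 FPKM in Lck-cre. Replicate 5 was the only Lck-cre sample above the control range. The log2 change was 0.22 (SE 0.09, adjusted p = 0.0962 by limma) and fell to 0.11 without Lck-cre replicate 5 or control replicate 1. Notch2 lay at 4.55 ± 0.765 and 3.75 ± 0.236 FPKM (SD, n = 4 each, adjusted p = 0.152 by limma), the 1 tested receptor with a lower mean in Lck-cre. Notch4 was below the filter, at most 0.261 FPKM.

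Rbpj, the DNA-binding partner of cleaved Notch, was the member with the smallest difference (ENSMUSG00000039191.13, chromosome 5, 53623494 to 53814704, plus strand). It lay at 14.1, 14.1, 15.3 and 12.9 FPKM in the controls and at 13.6, 14.1, 13.3 and 12.1 FPKM in Lck-cre, with overlapping groups. The log2 change was -0.08 (SE 0.08, 95% interval -0.26 to 0.09, adjusted p = 0.435 by limma). Reads of Rbpj can be shared with its processed pseudogene Rbpj-ps3, listed at 3.98 ± 0.2 FPKM in the controls and 3.73 ± 0.301 FPKM in Lck-cre, so the level is uncertain.

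Hes1, a transcriptional repressor and a direct Notch target, had the largest fold between means and the lowest control level (ENSMUSG00000022528.9, chromosome 16, 29883202 to 29886614, plus strand). It lay at 0.762, 0.222, 0.406 and 0.615 FPKM in the controls and at 3.98, 0.611, 1.48 and 2.17 FPKM in Lck-cre replicates 5 to 8. Lck-cre replicate 6 lay just below the second highest control, and the other 3 were above all controls. The means were 0.501 ± 0.237 and 2.06 ± 1.43 FPKM (SD, n = 4 each), a 4.11-fold difference. Only 3 samples reached 1 FPKM, all of them Lck-cre, so Hes1 was not tested, and its log2 change without a test was 1.21. The exact two-sided permutation test gave p = 0.0857. When genes were kept by a mean of 1 FPKM or more, Hes1 was tested and passed (adjusted p = 0.0184 by limma), and with no filter it did not (0.0819). It met the filter on the mean only through its Lck-cre samples, since every control was below 1 FPKM. That filter thus drew on the difference being tested, and the pass adds no evidence of its own. Deposited coverage of Hes1 was 1.02 to 2.44 reads per base in the controls and 14.7, 2.65, 5.93 and 8.61 in Lck-cre replicates 5 to 8, so the control level rests on low coverage.

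Nrarp, a Notch target whose product binds the Notch complex and damps it, was low in all samples (ENSMUSG00000078202.4, chromosome 2, 25070770 to 25073351, plus strand). It lay at 1.15, 1.32, 1.62 and 2.03 FPKM in the controls and at 1.89, 1.96, 1.92 and 2.32 FPKM in Lck-cre. Control replicate 4 lay above 3 of the Lck-cre samples, which themselves were close together. The log2 change was 0.33 (SE 0.13, 95% interval 0.03 to 0.63, adjusted p = 0.0937 by limma), and Nrarp passed without control replicate 4 (log2 change 0.43, adjusted p = 0.0493).

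Il2ra encodes CD25, the alpha chain of the interleukin 2 receptor, which marks the DN stage before pre-TCR signalling and also regulatory T cells (ENSMUSG00000026770.6, chromosome 2, 11647618 to 11698004, plus strand). It lay at 3.26, 1.81, 2.27 and 1.31 FPKM in the controls and at 4.03, 2.08, 3.47 and 5.15 FPKM in Lck-cre. The groups overlapped, since Lck-cre replicate 6 was below control replicates 1 and 3 and the other Lck-cre samples were above all controls. The means were 2.16 ± 0.83 and 3.68 ± 1.27 FPKM (SD, n = 4 each), a log2 change of 0.65 (SE 0.24, 95% interval 0.11 to 1.19, adjusted p = 0.0734 by limma). Exact permutation of the samples gave a two-sided p of 0.0857, and without Lck-cre replicate 6 Il2ra passed limma (log2 change 0.83, adjusted p = 0.0219). Without Lck-cre replicate 8 the log2 change was 0.43 (adjusted p = 0.144). Foxp3, which defines regulatory T cells, was at most 0.121 FPKM in any sample, and the 6 regulatory and activated T cell markers summed to 38.4 to 46.6 FPKM in the controls and 38.7 to 47.6 FPKM in Lck-cre.

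The order of the 8 levels was nearly the same in both groups. In the controls it ran from Notch1 (35.2 FPKM) through Ptcra (29.9), Rbpj (14.1), Notch3 (12), Dtx1 (4.23), Il2ra (2.16) and Nrarp (1.53) to Hes1 (0.501). The ranges of neighbours overlapped for Notch1 and Ptcra, for Dtx1 and Il2ra and for Il2ra and Nrarp. Within each control sample Dtx1 was nonetheless above Il2ra, and differences between genes were not tested. In Lck-cre Notch3 (14.2) stood before Rbpj (13.3) and Hes1 (2.06) before Nrarp (2.02), and in both of these pairs the ranges overlapped.

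The Lck-cre samples did not carry the difference equally. Replicate 6 was the lowest Lck-cre sample for 5 of the 8 members and replicate 5 the highest for 5. Dtx1, Notch1 and Hes1 shared the order of replicates 5, 8, 7 and 6, and Il2ra had 8, 5, 7 and 6, which is also the order of Sting1. Ptcra departed from it, since replicate 8 had its lowest Lck-cre level. Among the Lck-cre samples, replicate 6 was lowest for 29.0% of all tested genes, 45.3% of those with a higher Lck-cre mean and 68.4% of those called higher. Replicate 5 was highest for 21.1%, 18.0% and 14.3% of the same sets. With 4 samples these orders are a description and were not tested.

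**Figure D2:**
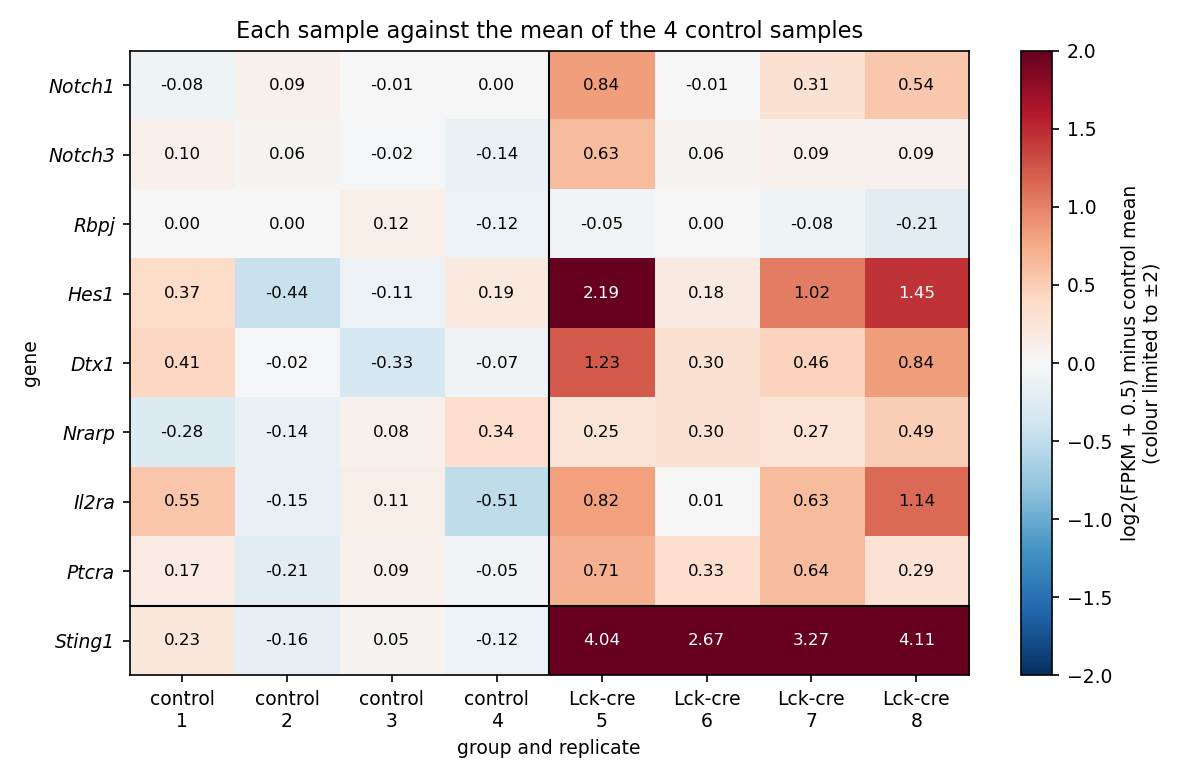
Each cell gives log2(FPKM + 0.5) of a sample minus the mean of the 4 controls, for the 8 genes and, in the bottom row, Sting1. Lck-cre replicate 5 reads 2.19 for Hes1, 1.23 for Dtx1 and 0.84 for Notch1, whereas replicate 6 reads 0.18, 0.30 and -0.01.

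Within the sexes the female pair, replicate 5 over replicate 1, gave ratios of 1.90 for Notch1, 1.47 for Notch3, 5.22 for Hes1, 1.83 for Dtx1 and 1.46 for Ptcra. The ratios of the means of 3 males against 3 males were 1.21, 1.08, 3.43, 1.68 and 1.40. For Il2ra the female ratio was 1.24 and the male ratio 1.98. All 6 genes were higher in Lck-cre in both sexes, and with 1 female in each group a difference between the sexes was not tested.

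Genes of other cells and of dividing cells differed between the same groups. Of 12 genes of cycling cells 11 rose (91.7%, against 15.4% of all tested genes), among them Tyms (log2 change 0.74) and Mcm3 (0.91). The list summed to 878 to 1230 FPKM in the controls and 1410 to 1870 FPKM in Lck-cre. Of the gamma delta T cell markers found, 3 of the 4 tested rose, namely Trdc (27.2 ± 1.04 to 52.2 ± 9.05 FPKM), Trgc1 (1.51 ± 0.667 to 8.81 ± 4.34 FPKM) and Trgc2 (1.59 ± 0.847 to 11.9 ± 5.70 FPKM; SD, n = 4 each), singled out after their values were seen. By sample Trgc1 stood at 9.70, 3.55, 7.96 and 14.0 FPKM in Lck-cre replicates 5 to 8, highest in replicate 8 and lowest in replicate 6, the order of Il2ra and Sting1. DP markers went the other way, with 5 of 12 falling (41.7%, against 10.4% of all tested genes) and 0 rising (0 also at an unadjusted p under 0.05). They summed to 7480 to 8140 FPKM in the controls and 6240 to 7720 FPKM in Lck-cre. In bulk RNA fewer cells of a type and less RNA per cell cannot be told apart, and the part of these genes in the results was not tested.

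Markers of other lineages were mostly near 0. Of 7 myeloid and dendritic cell markers Cd68 rose (5.74 ± 0.497 to 8.50 ± 1.95 FPKM), a call that ended in 7 of the 17 alternatives (adjusted p up to 0.104 by limma), and Itgam did not pass. The other 5 stayed below 1 FPKM and were not tested. All 5 had a higher mean in Lck-cre, a count of low values, and the share over all genes below the filter is not given here. Among them was Siglech, a marker of plasmacytoid dendritic cells, at 0.0552 ± 0.0247 and 0.593 ± 0.352 FPKM (SD, n = 4 each). The list had sums of 8.50 to 9.17 FPKM in the controls and 10.7 to 16.1 FPKM in Lck-cre. Of 5 NK cell markers Gzma, a granzyme, rose (21.0 ± 4.99 to 65.5 ± 23.8 FPKM), while Ncr1 was listed at 0 in every sample and the other 3 reached at most 0.0456 FPKM, so the sums of 16.4 to 26.7 and 34.9 to 88.9 FPKM are those of Gzma. The 5 B cell markers summed to 12.3 to 16.9 and 7.85 to 15.5 FPKM, nearly all of it Cd79b, which did not pass (adjusted p = 0.3 by limma). The 6 erythroid markers summed to at most 0.35 FPKM. The part of these cells in the results was not tested.

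Genes of the DN stage other than the members were barely detected. Of 15 listed, 13 stayed below 1 FPKM in every sample, and Cd44 and Mycn, the 2 tested, did not pass. Cd44, an adhesion receptor, lay at 2.51 ± 0.294 and 1.98 ± 0.352 FPKM (SD, n = 4 each, adjusted p = 0.105 by limma). The list summed to 5.43 to 6.17 FPKM in the controls and 5.92 to 8.49 FPKM in Lck-cre. Of the 13 low genes, 11 had a higher mean in Lck-cre and Kit and Gfi1b a lower one, a count of values near 0. The share over all genes below the filter is not given here. Among the 13 low genes the groups did not overlap for Lyl1 (0.418 ± 0.0216 and 0.677 ± 0.0653 FPKM), Lmo2 and Nfe2, and these were not tested. Of all tested genes 29.4% had groups that did not overlap, 17.1% with Lck-cre higher. Thymic epithelial markers summed to 7.56 to 8.94 FPKM in the controls and 7.21 to 9.95 FPKM in Lck-cre, nearly all of it Epcam and Ccl25, neither of which passed. Foxn1 and Dll4, the defining transcription factor and the Notch ligand of these cells, reached at most 0.0654 and 0.0382 FPKM.

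The other genes of the Notch pathway showed few differences. Of 42 tested genes for ligands, receptors, processing enzymes, nuclear partners and inhibitors outside the members, 1 rose and 4 fell, 11.9% against the background of 25.8%, with a median log2 change of -0.09. Of the ligands Jag2 alone was tested, at 4.16 ± 0.81 and 3.38 ± 0.443 FPKM (SD, n = 4 each, adjusted p = 0.094 by limma). Furin, the protease that makes the first cut in the receptor, fell from 24.4 ± 3.48 to 18.3 ± 2.20 FPKM, the 1 call among 12 tested genes of glycosylation and cleavage. Of 13 tested turnover genes and inhibitors, the member Nrarp among them, 0 passed by limma. At an unadjusted p under 0.05, 3 were higher and 1 lower. Of all tested genes 41.4% reached this p, 23.4% with a higher level in Lck-cre. Nedd4, a ubiquitin ligase, had the smallest p in the list (log2 change 0.21, adjusted p = 0.065 by limma).

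Of the Mastermind coactivators, which bridge Notch and the transcription machinery, both tested genes fell. Maml2 fell from 2.11 ± 0.138 to 1.31 ± 0.0623 FPKM (SD, n = 4 each, log2 change -0.52, SE 0.10, adjusted p = 0.00988 by limma), and Maml1 fell from 19.2 ± 0.817 to 15.8 ± 1.46 FPKM (log2 change -0.28, SE 0.08, adjusted p = 0.0326). Maml3, below the filter, was at 0.790 ± 0.0873 and 0.581 ± 0.101 FPKM. In all 3 genes the groups did not overlap, as in 29.4% of all tested genes. The call of Maml2 held in all 17 alternatives, and that of Maml1 ended in 7 (adjusted p up to 0.101). L3mbtl3, a corepressor that binds RBPJ, fell from 12.4 ± 1.16 to 9.77 ± 0.474 FPKM, and Kat2a, a histone acetyltransferase, rose from 16.7 ± 0.58 to 21.2 ± 2.47 FPKM, a call that ended with TPM values. Of the 17 tested nuclear factors, Rbpj among them, 1 rose and 3 fell (23.5% called, against 25.8% of all tested genes).

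**Figure D3:**
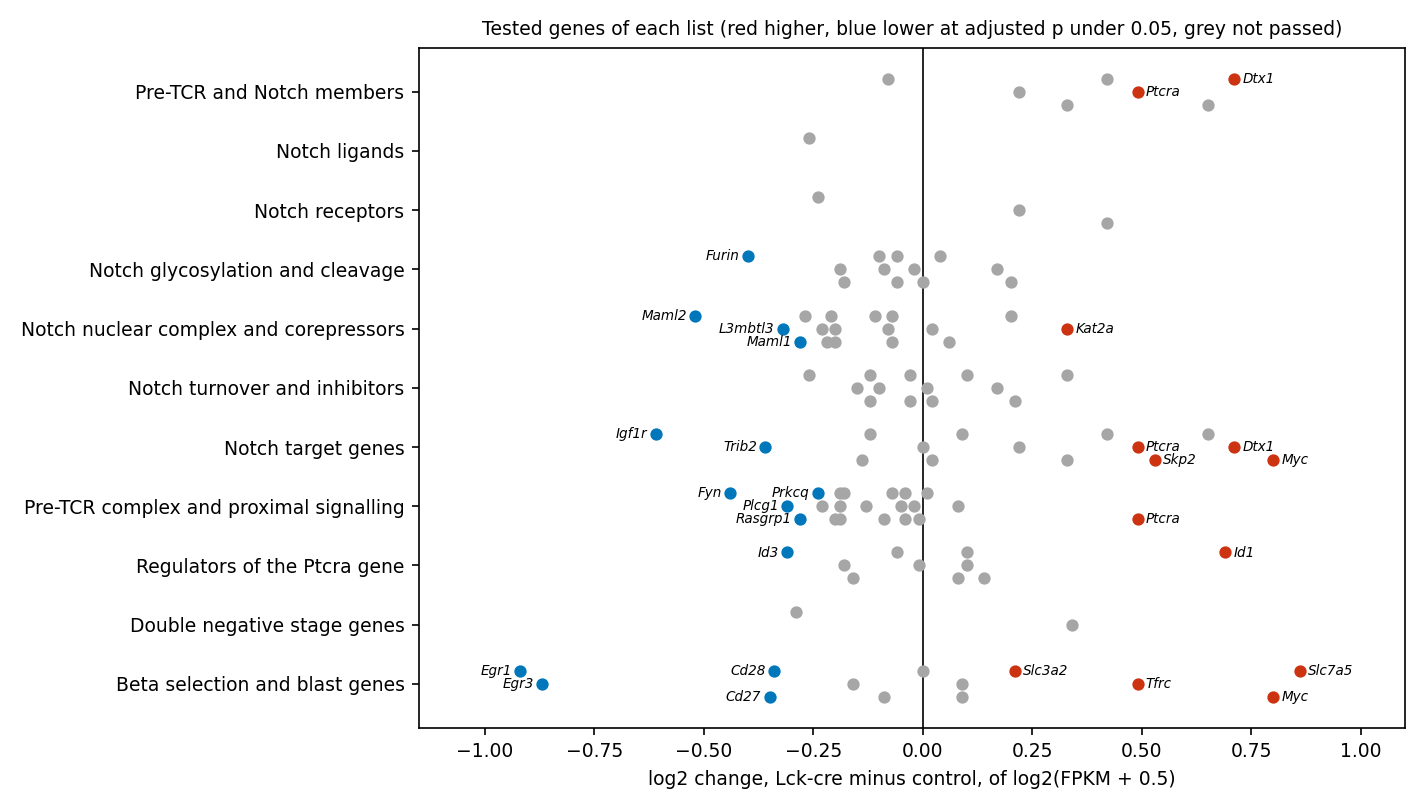
log2 change of log2(FPKM + 0.5), Lck-cre minus control, for each tested gene by list, red where higher and blue where lower at an adjusted p under 0.05 and grey where not passed. Among the members Dtx1 (0.71) and Ptcra (0.49) are red, and Il2ra (0.65), which lies between them, is grey. Maml2 (-0.52) is the lowest of the nuclear genes.

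Target genes divided. Of the 9 tested Notch targets outside the members, 2 rose and 2 fell, where 15.4% of all tested genes rose and 10.4% fell. Myc, a growth regulator, rose from 13.2 ± 1.04 to 24 ± 6.82 FPKM, and Skp2, a cell cycle ubiquitin ligase subunit, rose from 6.06 ± 0.759 to 8.93 ± 0.915 FPKM (SD, n = 4 each). Igf1r, a growth factor receptor, fell from 3.75 ± 0.478 to 2.28 ± 0.099 FPKM, and Trib2, a pseudokinase, fell from 32.1 ± 3.45 to 24.9 ± 3.29 FPKM. Of the Hes and Hey repressors other than Hes1, Hes5 was at 0.675 ± 0.323 and 0.832 ± 0.233 FPKM and Hey1 at 0.252 ± 0.189 and 0.386 ± 0.139 FPKM, both below the filter with overlapping groups.

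Among other genes of the pre-TCR complex and its signalling, all calls were toward lower levels. Of the 20 tested, 0 rose and 4 fell by limma, where 15.4% of all tested genes rose and 10.4% fell. At an unadjusted p under 0.05, 0 were higher and 6 lower, against 41.4% of all tested genes in either direction and 23.4% higher. The fallen genes were Fyn, a Src family kinase (a log2 change of -0.44), Plcg1, a phospholipase (a log2 change of -0.31), and Prkcq and Rasgrp1, which act further down the TCR pathway (log2 changes of -0.24 and -0.28; these 2 were named after their values were seen). Cd3e, a signalling chain of the complex, lay at 361 ± 51.4 and 314 ± 27.8 FPKM (SD, n = 4 each, adjusted p = 0.2 by limma). Reads do not show which chains were paired at the surface.

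Among known regulators of Ptcra, the E protein genes Tcf3 and Tcf12 lay at 144 ± 5.70 and 155 ± 3.82 FPKM and at 127 ± 12 and 123 ± 17.9 FPKM (SD, n = 4 each), with adjusted p of 0.225 and 0.713 by limma. Of 10 tested regulators 1 rose and 1 fell, where 15.4% of all tested genes rose and 10.4% fell. The share of called regulators was thus not above the background. Both called genes encode inhibitors of E proteins, and their part in the level of Ptcra was not tested. Id1 rose from 2.75 ± 0.568 to 4.76 ± 0.932 FPKM and Id3 fell from 72.3 ± 2.45 to 58.5 ± 4.96 FPKM. Among genes of beta selection, the passage that the pre-TCR drives, 4 of 13 rose and 4 fell. This was 61.5% called, against 25.8% of all tested genes. The amino acid transporter chain Slc7a5 rose from 10.2 ± 0.521 to 19.0 ± 2.06 FPKM, whereas Egr1, which TCR and pre-TCR signals induce, fell from 23.5 ± 3.06 to 12.5 ± 3.63 FPKM and the costimulatory receptor Cd28 fell from 57.1 ± 6.20 to 44.8 ± 3.17 FPKM (SD, n = 4 each). The calls of Maml1, Furin, L3mbtl3, Kat2a, Myc, Skp2 and Trib2 ended without Lck-cre replicate 5 and also without control replicate 1. The same held for Fyn, Plcg1, Id1, Id3, Egr1 and Cd28. Either omission leaves 3 males against 3, and the adjusted p by limma reached up to 0.14 over the alternatives of these genes. Of the 17 alternatives, those that ended a call were 9 for Rasgrp1, 8 for Trib2 and Prkcq, 7 for L3mbtl3 and Plcg1, 6 for Kat2a, 4 for Furin and Id1, 3 for Myc, Fyn, Id3 and Egr1, and 2 for Skp2 and Cd28. The highest adjusted p of Prkcq and Rasgrp1 was 0.142 and 0.124.

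The profile nearest to Ptcra over the 8 samples, by root mean square difference of centred log2(FPKM + 0.5) among 12336 tested genes, was that of the predicted gene Gm6722 (0.073), then Gng10, a G protein gamma subunit (0.075), and Clba1 (0.081). For Dtx1 the nearest were Tert, the catalytic subunit of telomerase (0.132), Ighj2, an immunoglobulin joining segment (0.145), and Kbtbd11 (0.146). Tert rose from 5.89 ± 0.96 to 9.40 ± 1.91 FPKM and Gng10 from 11 ± 1.52 to 15.0 ± 2.13 FPKM (SD, n = 4 each), and the call of Gng10 ended in 5 of the 17 alternatives (adjusted p up to 0.0806 by limma) and that of Tert in 0. No member was among the nearest 3 of the other.

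**Figure D4:**
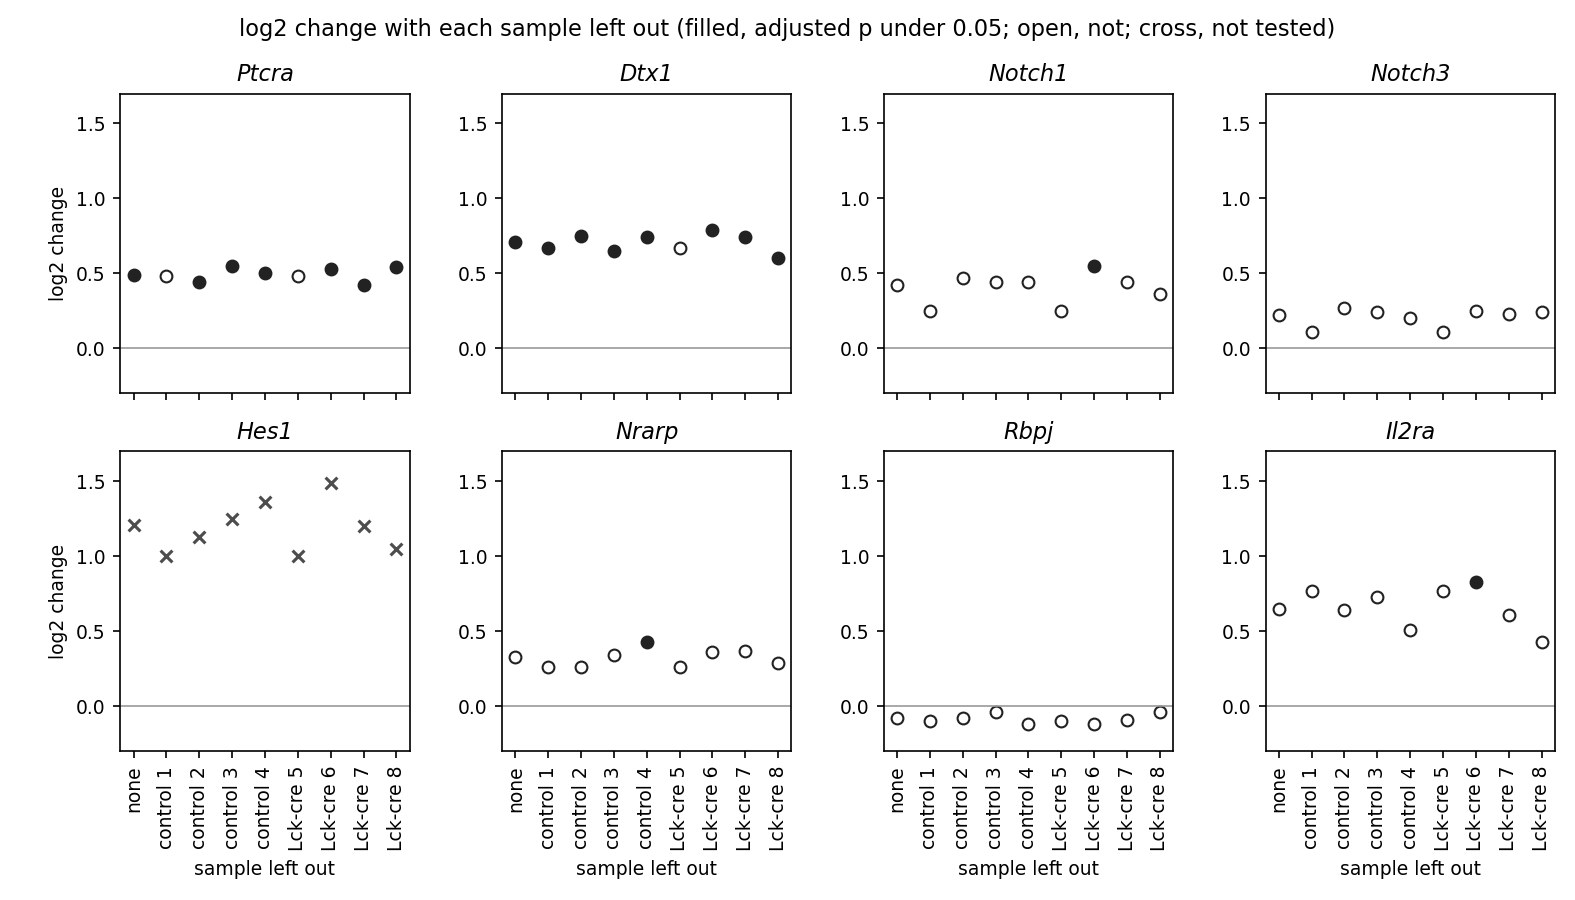
log2 change of each gene in limma with all samples (none) and with each sample left out, filled where the adjusted p was under 0.05 and open where it was not, with crosses for Hes1, which was not tested. Ptcra ranges from 0.42 to 0.55 and Dtx1 from 0.60 to 0.79, and Notch1 is filled only without Lck-cre replicate 6.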

How the data were processed

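RNA of 8 samples was sequenced, 4 control and 4 Lck-cre. The submitters' processing notes name HISAT and Bowtie2; the sources used here give no quantifier, genome build or annotation. Per the file headers, the authors gave FPKM, TPM, which sum to 1000000 in each sample, and coverage per base, a signal not scaled by depth. Entries sharing a gene ID were summed. A gene was kept when 4 or more samples reached 1 FPKM. Values were taken as log2(FPKM + 0.5). The model, in limma 3.58.1 (R 4.3.3), had genotype and sex as terms and a trended prior. Tests were two-sided, and p-values were adjusted by Benjamini-Hochberg over all 12337 genes. Single means were compared by an exact permutation test over all 70 assignments. Folds are ratios of mean FPKM. Tables and figures used Python 3.11.15 with pandas 2.3.3 and matplotlib 3.10.9. The fit was tested on simulated data before use.

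The members, 11 pathway lists and 8 marker lists were chosen with earlier results of these data known. Named genes were the members, from each pathway list up to 2 called genes in each direction with the smallest adjusted p (or, with none called, the 1 with the smallest p), 10 paralogues and partners given by name, and the 3 nearest profiles of each called member. The 17 alternatives were quantile and median-of-ratios scaling, TPM, no filter, keeping genes by their mean, a pseudocount of 0.1 or of 1, no sex term, no trend and each of the 8 samples left out. Without either female the other female is fitted exactly, so 3 males are compared with 3. The summed level of the gamma delta T cell markers is not reported here.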

Additional observations from a re-analysis of the deposited data

Results flagged for a closer look

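In a group of 4, a sample was singled out when its gap to the nearest other sample exceeded Dixon's 95% critical share of the range of its group. Of 74 groups checked, over the members and the other named genes, 5 met this, where chance gives about 1 in 20. Notch3 in Lck-cre replicate 5 was at 18.9 FPKM, against 12.5 to 12.8 in the other 3. Nrarp in Lck-cre replicate 8 was at 2.32 FPKM, against 1.89 to 1.96. Cd44 in Lck-cre replicate 8 was at 1.45 FPKM, against 2.12 to 2.19. Maml3 was at 0.92 FPKM in control replicate 1, against 0.733 to 0.758, and at 0.431 FPKM in Lck-cre replicate 8, against 0.617 to 0.648.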

How the results depend on the processing

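No member changed direction in the 17 alternatives, of which quantile scaling was not run for Hes1, a gene below the filter. The 9 that keep all samples left the calls of Ptcra (log2 change 0.42 to 0.50) and Dtx1 (0.65 to 0.76) in place, with adjusted p of at most 0.0497 and 0.0482, both with no filter. A filter on the mean brought in Hes1 (log2 change 1.21), which met it only through its Lck-cre samples. With each sample left out in turn, log2 changes ran from 0.42 to 0.55 for Ptcra, 0.60 to 0.79 for Dtx1, 0.25 to 0.55 for Notch1, 0.11 to 0.27 for Notch3, 0.26 to 0.43 for Nrarp, 0.43 to 0.83 for Il2ra, 1.0 to 1.49 for Hes1 and -0.12 to -0.04 for Rbpj. Members called ran from 0 to 4, pathway list genes called from 11 to 45 (35 of 113 with all samples), and all genes called from 647 to 3889 (3180 with all samples). The lowest counts came without the females, where 3 males are compared with 3, and without control replicate 2 there were 1256 genes and 21 list genes. With no filter 1056 genes and 15 list genes passed, of 28851 and 144 tested. TPM turned the balance from 1901 higher and 1279 lower to 1300 and 2067, and that of the pathway lists from 20 and 15 to 16 and 22. Of 23 called genes (members, list genes named by the rule and 3 gamma delta genes), 8 passed in every alternative, 15 lost the call without Lck-cre replicate 5 (14 without control replicate 1 and 11 with no filter), and none changed sign. Of the other called genes described, Prkcq, Rasgrp1, Gng10 and Cd68 lost the call in 8, 9, 5 and 7 alternatives, and Tert and Gzma in 0. No paired analysis was possible because the 2 groups share no replicate numbers. Hes1 in the controls and in Lck-cre replicate 6 rests on low coverage, 1.02 to 2.65 reads per base. Nrarp had 8.89 to 17.8 reads per base across the samples.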
